A study of Drosophila melanogaster with 30 samples.

Results

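The genes described here are the cytochrome P450 genes of *Drosophila melanogaster*, taken as every gene whose symbol in the count tables starts with Cyp, a family number, a subfamily letter and a member number. The rule used names only, and it returned 85 of 17471 listed genes. RNA had been sequenced from pools of 100 heads of females aged 3 to 7 days. The flies came from an outbred population made by intercrossing 40 inbred DGRP lines, strains with sequenced genomes that descend from wild females. From this base, lines were selected for 30 generations in a T-maze, a choice chamber, for attraction (+) or aversion (-) to an odorant. The odorants were 0.1% 2,3-butanedione (BUT) and 0.01% cyclohexanone (CYC). This gave the treatments BUT+, BUT-, CYC+ and CYC-, and unselected lines from the same population served as control. Each of the 5 treatments had 3 lines and each line 2 samples, so that 30 libraries were compared, 6 per treatment. The treatment is therefore replicated by 3 lines, and the 2 pools of a line share its genetic history. All groups, controls included, carry alleles of the same 40 founders, and a line is itself a population with its own drift.

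Cytochrome P450s are heme-containing monooxygenases that insert an oxygen atom into lipophilic substrates. Those of the endoplasmic reticulum receive electrons from Cpr, the P450 reductase, and from Cyt-b5, and those of mitochondria from dare, the adrenodoxin reductase, through a ferredoxin. Insect P450s fall into 4 clans, CYP2, CYP3, CYP4 and mitochondrial. Many members of the CYP3 and CYP4 clans break down plant toxins, insecticides and other foreign compounds, and some act on odorants and pheromones in antennae. Others have fixed roles in making ecdysteroids, juvenile hormone and the hydrocarbons of the cuticle. The genes are often arranged in tandem clusters, and they are known for allelic variation in copy number and expression between wild strains.

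The 85 genes comprised 40 of the CYP3 clan, 32 of the CYP4 clan, 9 mitochondrial genes and 4 of the CYP2 clan. On the Release 6 assembly 35 lay on chromosome arm 2R, 16 on 3R, 14 on 2L, 14 on X and 6 on 3L. Neighbours within 10 kb of each other formed 16 clusters that held 46 of the genes. The largest ran over 9 genes on 2R (positions 14871366 to 14903095), in the order Cyp6a22, Cyp6a17, Cyp6a23, Cyp6a19, Cyp6a9, Cyp6a20, Cyp6a21, Cyp6a8 and Cyp317a1. At least 1 read was found for 84 genes, and 78 were read in every library. The exception with no read was Cyp9c1. A minimum of 1 CPM (a gene's reads per 1000000 counted reads of its library) in 15 libraries was met by 69 genes (81.2%, against 52.9% of all listed genes), and these 69 were tested. The 16 that were not tested had a mean of at most 0.977 CPM.

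Library totals ranged from 21194086 to 38621924 counted reads with a median of 29967406, and 1 CPM stood for about 21.2 reads in the smallest library. Together the P450 genes took 0.525% to 0.954% of a library's reads. By treatment the ranges were 0.676% to 0.719% in BUT+, 0.525% to 0.678% in BUT-, 0.611% to 0.954% in CYC+, 0.589% to 0.704% in CYC- and 0.616% to 0.801% in control, so those of BUT- and BUT+ overlapped only at their edges. Markers of neurons (summed level 1571 to 2765 CPM), photoreceptors (42410 to 59600 CPM), glia (1940 to 2434 CPM) and antenna (1887 to 2539 CPM) were present in every library, as the label of whole heads implies. The summed level of 6 markers of head fat body, a site of P450 expression, was uneven. Its median was 80600 CPM in BUT+, 68580 in BUT-, 27650 in CYC+, 43180 in CYC- and 46900 in control. Yp1 and Yp2, yolk protein genes of this list, fell by 0.88 and by 0.91 in CYC+ vs. control on the log2 scale (adjusted p = 0.0432 and 0.0618), and the antennal Obp83b was lower than control in CYC+ and CYC- (-0.25 and -0.21, adjusted p = 0.0176 and 0.0723). Their part in the P450 calls was not tested. The median fat body sum was also 66280 CPM in the first samples of the lines and 38250 in the second samples. In such bulk samples, fewer cells of a type and less RNA per cell cannot be told apart.

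A single gene dominated the family. Cyp6g1 (2R, 12185667 to 12188431), whose overexpression is known for resistance to DDT, accounted for 44.0% of all P450 reads. Its level per kilobase of exon was 1448 CPM per kb, and its library values had a lowest of 2123 CPM, a median of 2992 CPM and a highest of 4559 CPM. The lowest of these, taken per kb, was above the highest library of every other member. After scaling by exon length the next genes were Cyp6d5 at 168.9 CPM per kb, Cyp6w1 (linked to DDT resistance) at 143.9 and Cyp9f2 at 142.6. Cyp313a1 stood at 119.8, Cyp4p1 at 110.1, Cyp28d1 (a gene of nicotine resistance) at 105.8 and Cyp12a4 (a mitochondrial enzyme linked to lufenuron resistance) at 93.3. Cyp9b2 at 89.1 and Cyp28a5 at 88.1 completed the highest 10, which held 71.1% of the summed P450 level per kb. The ranges of the 15 line means of the genes below Cyp6g1 overlapped with those of their neighbours in the order.

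Genes with known developmental roles were lower. Cyp4g15, a P450 of the brain, ranked 11 at 85.1 CPM per kb. Cyp4g1, the decarbonylase that makes cuticular hydrocarbons in oenocytes, ranked 37 at 11.1 CPM per kb and took 0.343% of P450 reads. Oenocyte markers were also low, with a sum of 3 markers between 1.66 and 16.2 CPM. Cyp18a1, which inactivates ecdysteroids, ranked 39 at 10.3 CPM per kb. Cyp303a1, needed for the formation of sensory bristles, was near the bottom of the tested genes at 0.763 CPM per kb. The levels per kb of the tested genes spanned 1900-fold.

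**Figure D1:**
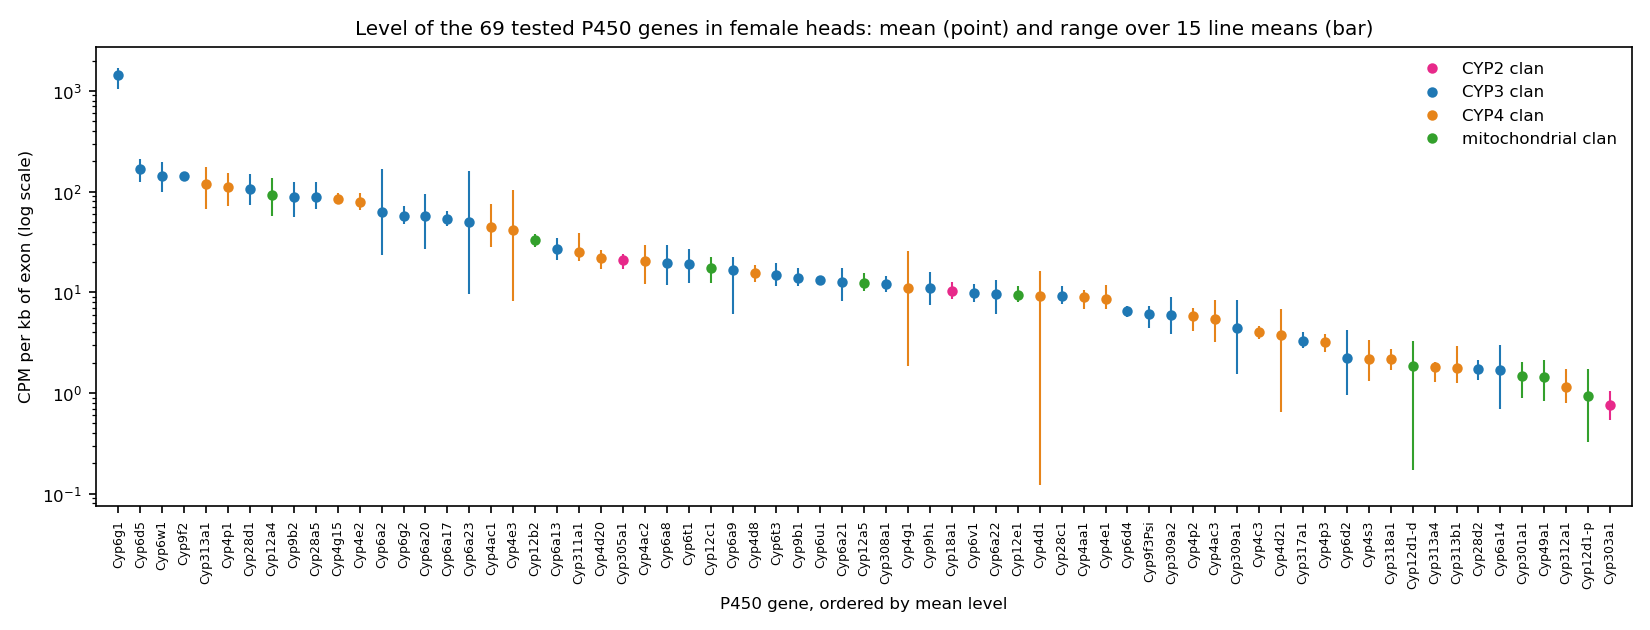
Level of the 69 tested P450 genes in heads, in CPM per kilobase of exon on a log axis, ordered by level and coloured by clan. Each point is the mean of the 15 line means and each bar runs from the lowest to the highest line mean. Cyp6g1 stands alone at 1448 CPM per kb, and long bars mark genes such as Cyp4d1, whose lines differed 132-fold.

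Selection was compared with control in each treatment, and the 2 directions of selection were compared with each other. Genes were called by edgeR's quasi-likelihood test at a Benjamini-Hochberg adjusted p under 0.1 over all 9240 genes tested. All comparisons with control share the same 6 control libraries. In CYC+ vs. control 13 of 69 P450 genes (18.8%) were called, against 7.02% of all genes tested. Of these 5 were higher (7.25% of the 69, background 3.29%) and 8 lower (11.6%, background 3.73%). CYC- vs. control had 11 calls (15.9%, background 3.74%). There, 1 gene was higher (1.45%, background 1.43%) and 10 were lower (14.5%, background 2.32%). BUT- vs. control also had 11 calls (15.9%, background 4.7%), of which 2 were higher (2.9%, background 2.05%) and 9 lower (13%, background 2.65%). BUT+ vs. control gave 2 (2.9%), near the background of 2.99%, with 1 higher and 1 lower (1.45% each, backgrounds 1.53% and 1.46%). Of the comparisons between selected directions, BUT+ vs. BUT- gave 2 genes (2.9%, background 0.66%) and CYC+ vs. CYC- gave 4 (5.8%, background 1.54%). All were higher in the + treatment, where the backgrounds were 0.346% and 0.855%. In all, 25 genes (36.2%) carried 43 calls, against 14.1% of all genes with a call in at least 1 of the 6 comparisons. Of the 25, 13 were among 24 tested genes of the CYP4 clan and 9 among 33 of the CYP3 clan. The others were 2 of 9 tested mitochondrial genes and 1 of 3 of the CYP2 clan.

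These counts depended on single lines, and the shares of all genes called in the fits without a line are not given here. CYC+ vs. control gave 5 genes without CYC+ line 3, 2 without control line 1 and 6 without control line 3. CYC- vs. control gave 4, 5 and 7 without CYC- lines 1, 2 and 3, and 6, 7 and 6 without control lines 1, 2 and 3. BUT- vs. control gave 5 without BUT- line 1, 2 or 3, 3 without control line 1, 6 without control line 3 and 7 without BUT+ line 2, which shares the fit. BUT+ vs. control gave 1 without BUT+ line 3, control line 1 or control line 3, and 4 without control line 2. BUT+ vs. BUT- gave 1 without BUT+ line 1 or 3 and 0 without BUT+ line 2 or BUT- line 3. CYC+ vs. CYC- gave 12 without CYC+ line 2, 1 without CYC+ line 3 or CYC- line 3 and 0 without CYC- line 2. Of the 43 calls, 7 were kept whichever line was left out. With the 2 libraries of each line summed, so that a treatment has 3 samples, 3 of the 43 calls were kept, Cyp6a21 in BUT- and Cyp4e2 in CYC+ and in CYC-. At an unadjusted p under 0.05 those fits held 18, 19 and 24 P450 genes for BUT-, CYC+ and CYC- against control. The fits over all libraries held 19, 20 and 21. No share of all genes is given at that threshold, so these counts cannot be set against a background.

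The direction of the family as a whole is described by its medians. The median log2 fold change of the 69 genes was -0.22 in CYC- vs. control and -0.15 in BUT- vs. control, where the medians over all genes tested were 0.00 in both. In CYC- 53 of 69 P450 genes lay below 0 and in BUT- 52, against 48.5% and 48.9% of all genes. In CYC+ the median was -0.04 with 39 genes below 0, where all genes had a median of 0.01 and 47.1% below 0. In BUT+ it was -0.02 with 38 genes below 0, where all genes had a median of -0.01 and 54.1% below 0. With each line left out in turn the CYC- median stayed between -0.165 and -0.237. The BUT- median was -0.0782 without BUT- line 1 and -0.258 without BUT- line 3. The small medians of CYC+ and BUT+ had no stable sign. That of CYC+ was 0.0222 without control line 1 and 0.00972 without CYC+ line 2, and that of BUT+ was 0.0348 without BUT+ line 3, with 29 genes below 0. The line means of CYC- and control did not overlap for 25 P450 genes (36.2%, against 17% of all genes), and those of BUT- and control for 18 (26.1%, against 16.3%). For CYC+ and BUT+ this number was 17 (24.6%, against 18.5%) and 14 (20.3%, against 17.3%). Between + and - it was 13 in BUT (18.8%, against 13.4%) and 14 in CYC (20.3%, against 14.6%). Summed over the family without Cyp6g1, the median library held 4134 CPM in control, 3531 in BUT- and 3529 in CYC-, with 3955 in BUT+ and 3894 in CYC+.

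The size of this shift differed between the 2 samples of a line. Within the first samples alone, the median log2 fold change against control was -0.06 in BUT-, -0.06 in CYC-, 0.15 in CYC+ and -0.05 in BUT+. Within the second samples alone it was -0.26, -0.33, -0.26 and -0.02 in the same order. Calls within the first samples numbered 2 in CYC+ vs. control and 0 in the 5 other comparisons, and within the second samples 16 in CYC- vs. control, 6 in CYC+ vs. control and 0 in the other 4. These edgeR fits compare 3 libraries with 3. Where they gave 0 calls, 2 to 22 P450 genes in the first samples and 7 to 21 in the second had an unadjusted p under 0.05. No share of all genes is given for these fits, so their counts cannot be set against a background. Against control, the medians over all genes tested lay between -0.00163 and 0.0152 in the first samples. In the second samples they lay between -0.0151 and -0.00595. The sign for CYC+ thus turned between the samples, and the difference itself was not tested. The summed level of the head fat body markers had a median of 68580 CPM in BUT- and 46900 in control. The libraries overlapped (26300 to 90740 and 38250 to 72330 CPM), and none of the 6 markers was called between these treatments. In the first samples the sum was 63680, 87980 and 90740 CPM in BUT- and 40570, 38990 and 25720 in CYC+. It was 58180, 66280 and 64960 in CYC-, and 47360, 72330 and 70350 in control. In the second samples it was 26300, 52290 and 73470 CPM in BUT- and 29570, 18480 and 17200 in CYC+. It was 18800, 28180 and 26250 in CYC-, and 44320, 46450 and 38250 in control. The part of fat body in the P450 medians was not tested.

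A test across all 5 treatments at the same time called 29 P450 genes (42%, against 19.3% of all genes), and 19 without CYC+ line 3 or control line 1. In the model of the 5 treatment means, edgeR called no P450 gene for a difference between the response to BUT selection (BUT+ minus BUT-) and the response to CYC selection (CYC+ minus CYC-), where the background was 0.53%. There were 10 P450 genes (14.5%, against 9.04% of all genes) with an unadjusted p under 0.05, and DESeq2 called 1, Cyp4d21, with a log2 difference of 1.72 (SE 0.50) and an adjusted p of 0.0703. In edgeR the value for Cyp4d21 was 1.70 (SE 0.48) with an adjusted p of 0.161, and with the replicate block, which adds line and sample numbers to the model, it was called (1.78, SE 0.45, adjusted p = 0.0789). Leaving out a line gave at most 2 genes, Cyp6a9 and Cyp6a23 without CYC+ line 2 (adjusted p of 0.011 and 0.0428). It gave 1 gene without BUT- line 1, Cyp4d1 (0.0102), and 1 without CYC+ line 1, Cyp4d21 (0.0628).

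**Figure D2:**
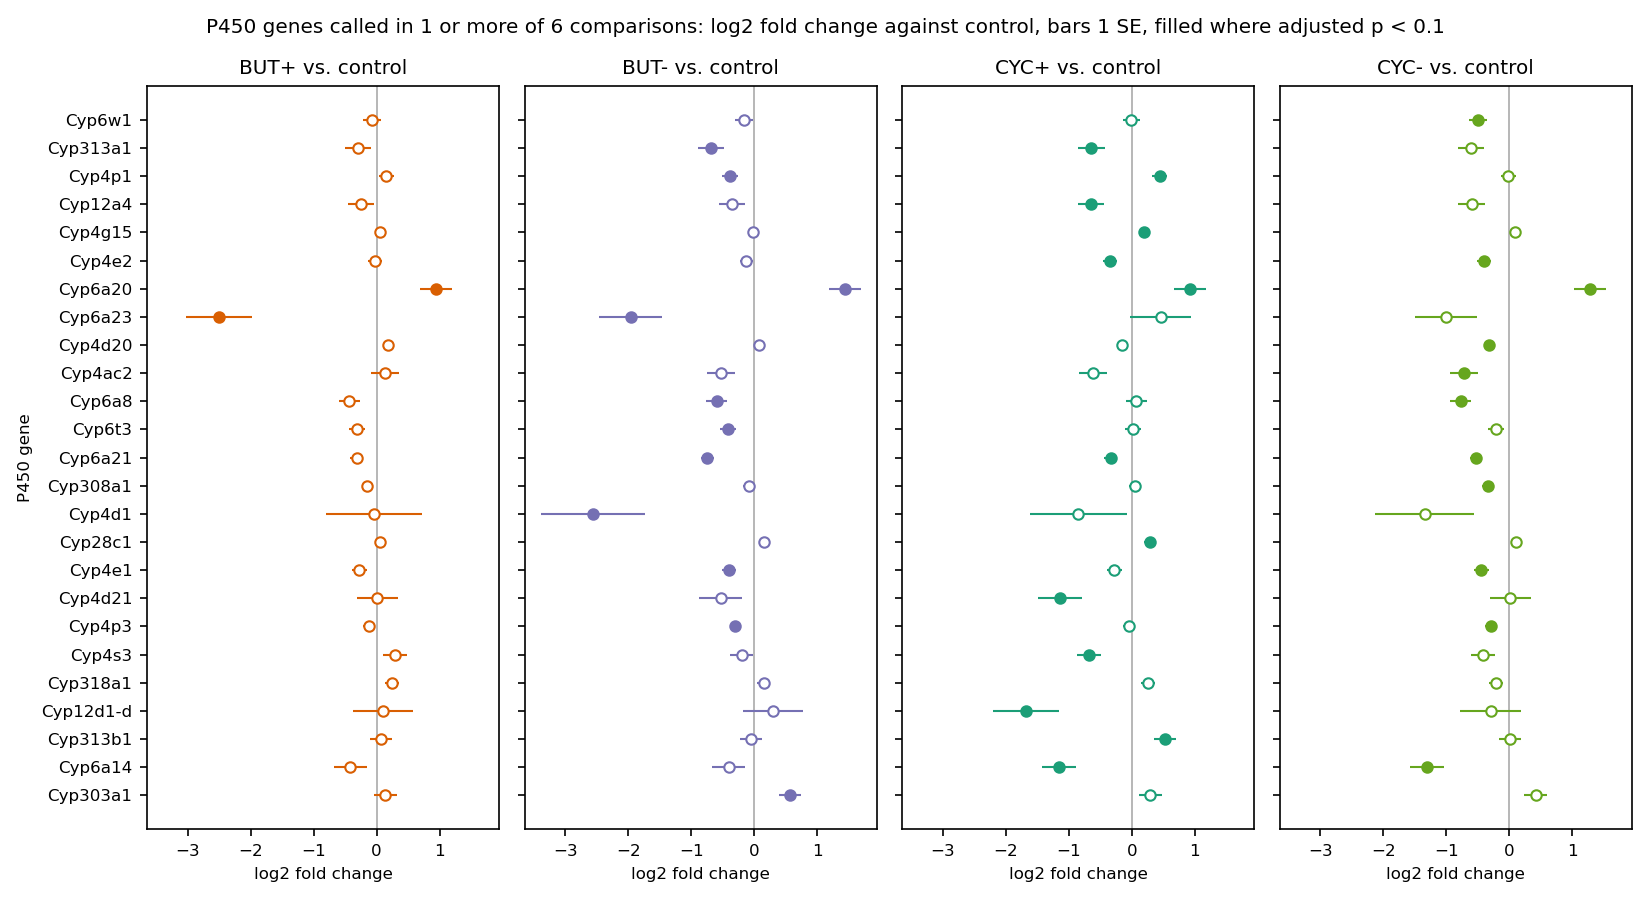
Log2 fold change against control of the 25 P450 genes called in at least 1 comparison, in BUT+, BUT-, CYC+ and CYC-. Bars are 1 SE and filled points were called by edgeR. Cyp6a20 lies above 0 in all 4 treatments (0.92 to 1.44) and Cyp6a21 below 0 in all 4 (-0.31 to -0.75), and most of the other called genes lie below 0 in BUT- and CYC-.

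Of the Cyp6a cluster on 2R, Cyp6a20, Cyp6a21, Cyp6a23 and Cyp6a8 were called against control. Cyp6a20 (14882118 to 14884046), known for its effect on aggression between males, had control line means of 48.8, 48.6 and 56.6 CPM. The line means were 120, 129 and 169 CPM in BUT-, 130, 136 and 108 in CYC-, 100, 71.5 and 124 in BUT+, and 50.3, 172 and 70.4 in CYC+. All 3 lines of BUT-, CYC- and BUT+ lay above all 3 control lines, while CYC+ line 1 lay within the control range. Cyp6a20 rose by 1.44 on the log2 scale in BUT- (SE 0.26, edgeR adjusted p = 0.00265) and by 1.28 in CYC- (SE 0.25, adjusted p = 0.00691). It also rose by 0.94 in BUT+ (SE 0.25, adjusted p = 0.0541) and by 0.92 in CYC+ (SE 0.25, adjusted p = 0.0395). The calls in BUT- and CYC- were kept without any line. The call in CYC+ rested on line 2, without which the log2 fold change was 0.23 (adjusted p = 0.449), and was lost without control line 1 (0.122). The call in BUT+ was lost without BUT+ line 1 (0.141) or 3 (0.21) and without control line 1 (0.227) or 3 (0.105). The 2 samples of control line 2 read 32.8 and 64.3 CPM, the widest gap within a control line.

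Its neighbour Cyp6a21 (14885264 to 14886947) went the other way. Control line means were 28.4, 28.02 and 23.9 CPM, against 16.6, 17.9 and 13.4 in BUT- and 17.6, 17.1 and 21.0 in CYC-. All BUT- and CYC- lines lay below all control lines. Cyp6a21 fell by 0.75 in BUT- (SE 0.10, adjusted p = 0.000231) and by 0.53 in CYC- (SE 0.10, adjusted p = 0.00685), and both calls were kept without any line. CYC+, with 22.9, 18.1 and 22.6 CPM, was also below all control lines, and the gene fell there by 0.34 (SE 0.10, adjusted p = 0.0619). That call was lost without CYC+ line 2 (0.196), control line 1 (0.195) or control line 2 (0.152). BUT+ read 21.8, 24.1 and 18.8 CPM, with a log2 fold change of -0.31 that was not called (adjusted p = 0.133). BUT+ exceeded BUT- by 0.43 (SE 0.10, adjusted p = 0.061), a call lost without BUT+ line 1 (0.155), BUT+ line 2 (0.306) or BUT- line 3 (0.259).

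Cyp6a23 (14875829 to 14877654) gave the widest range of the cluster. Its control lines read 96.8, 136 and 168 CPM and its BUT+ lines 19.2, 22.5 and 29.1 CPM. BUT- lines read 17.1, 62.9 and 22.9 CPM, and all BUT lines lay below all control lines. Cyp6a23 fell by 2.50 in BUT+ (SE 0.52, adjusted p = 0.0116), and this call was kept without any line. It fell by 1.96 in BUT- (SE 0.51, adjusted p = 0.0402), which was lost without BUT- line 1 (0.137), BUT- line 3 (0.149) or control line 3 (0.101). In CYC+ the lines read 240, 30.6 and 280 CPM and in CYC- 20.5, 63.3 and 116 CPM, so that CYC+ lines lay both above and below the control range. Neither differed from control (adjusted p = 0.624 and 0.344). The 2 samples of a line stayed close, for example 286 and 275 CPM in CYC+ line 3 against 35.9 and 25.3 in CYC+ line 2.

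The remaining members of the cluster were mixed. Cyp6a8 (14887171 to 14889010), a gene induced by foreign compounds, read 38.2, 53.0 and 37.4 CPM in control, 20.8, 22.7 and 31.7 in CYC- and 52.3, 36.8 and 46.3 in CYC+. CYC- lay below both other treatments in all its lines. Cyp6a8 fell by 0.77 in CYC- (SE 0.17, adjusted p = 0.0159) and was higher by 0.85 in CYC+ than in CYC- (SE 0.17, adjusted p = 0.0194). The first call was lost without CYC- line 1 (0.103) and the second without CYC- line 2 (0.109). BUT- lines read 26.3, 32.4 and 26.7 CPM, all below control, and the gene fell there by 0.59 (SE 0.17, adjusted p = 0.0597), a call lost without BUT- line 1 (0.158) or 3 (0.147) or control line 1 (0.12) or 2 (0.204). Cyp6a17, a gene of temperature preference, varied little, with line means between 79.1 and 111 CPM and no call. Cyp6a9 had no treatment call either, but its CYC+ lines read 16.3, 43.6 and 12.1 CPM. Cyp6a9 overlaps Cyp6a19 on the opposite strand, and the use of strand in counting is not given in the sources used here. Reads from close copies of the Cyp6a group could likewise have been assigned to a neighbour.

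**Figure D3:**
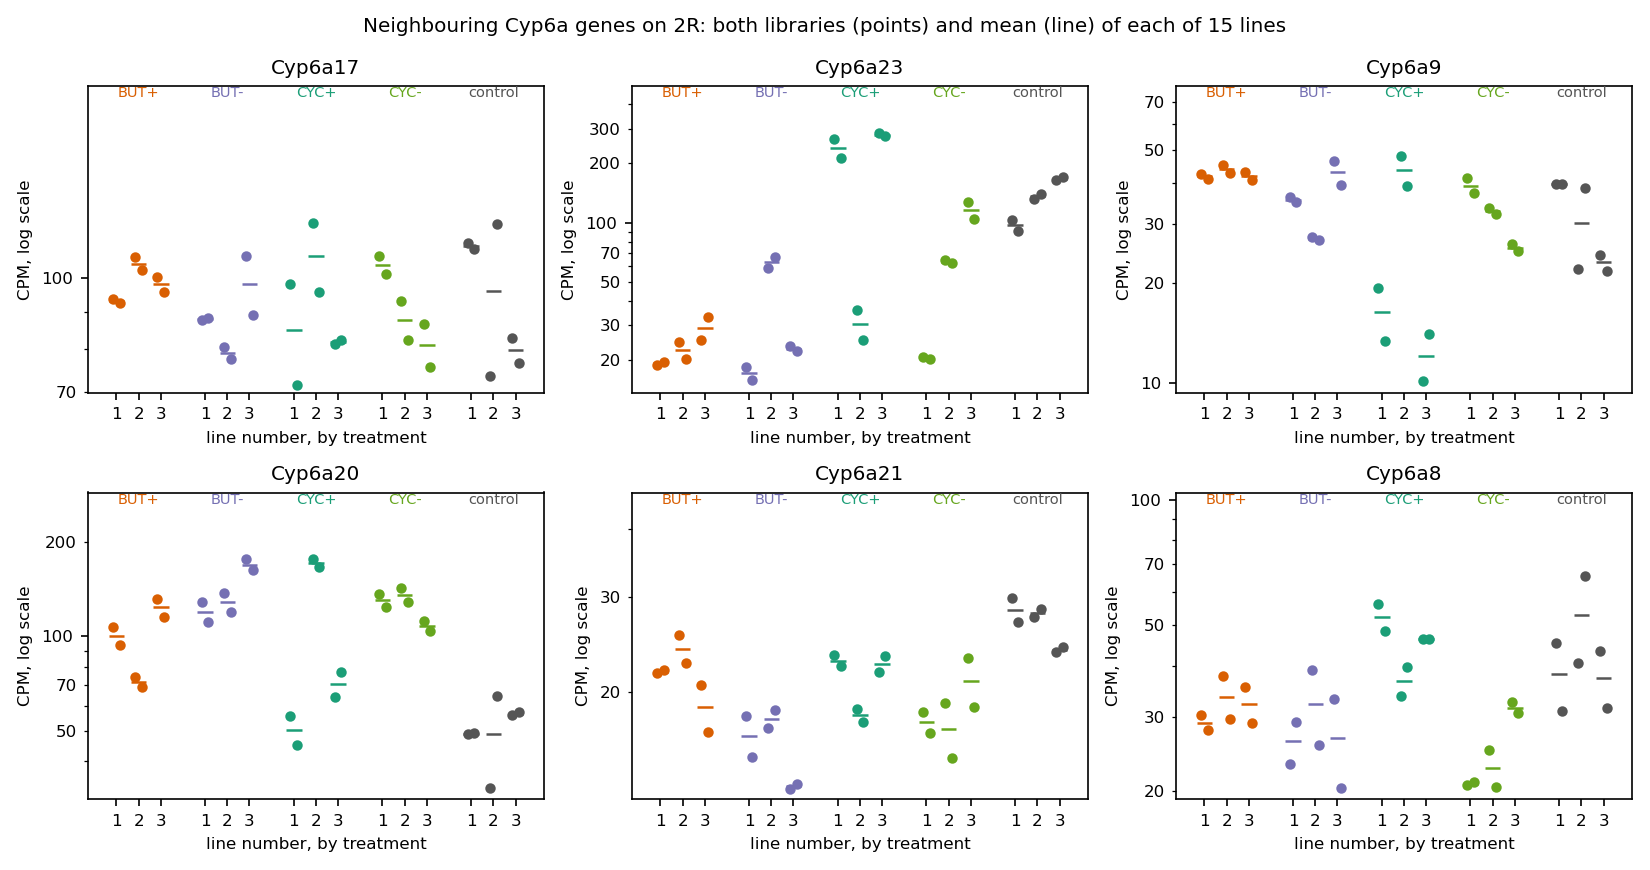
Levels of 6 genes of the Cyp6a cluster on 2R in the 15 lines, in CPM on a log axis. Points are the 2 samples of a line with the first on the left, and the dash is their mean. CYC+ line 2 departs from CYC+ lines 1 and 3 in Cyp6a23 (30.6 against 240 and 280 CPM), Cyp6a9 (43.6 against 16.3 and 12.1) and Cyp6a20 (172 against 50.3 and 70.4).

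Outside the cluster, Cyp6a14 (2R, 8564187 to 8567202) was low in both CYC treatments. Its control lines read 7.71, 5.88 and 8.87 CPM, CYC- lines 3.64, 3.16 and 2.32 CPM, and CYC+ lines 2.53, 5.67 and 2.07 CPM. No CYC line reached the lowest control line. Cyp6a14 fell by 1.31 in CYC- (SE 0.27, adjusted p = 0.00902) and by 1.15 in CYC+ (SE 0.27, adjusted p = 0.0172), and both calls were kept without any line. Without CYC+ line 2 the change in CYC+ was -1.73. BUT+ and BUT- had 5.62 ± 0.659 and 5.66 ± 1.08 CPM (SD over 3 lines) and were not called (adjusted p = 0.488 and 0.468).

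The CYP4 clan held the most called genes. Cyp4p1 (2R, 9240041 to 9242139), the highest of the clan after Cyp313a1, was higher in both + treatments than in the matching - treatment. Its lines read 171, 215 and 204 CPM in BUT+ against 122, 163 and 121 in BUT-, and 248, 217 and 257 in CYC+ against 198, 158 and 168 in CYC-, without overlap. The log2 differences were 0.54 in BUT (SE 0.12, adjusted p = 0.0429) and 0.46 in CYC (SE 0.12, adjusted p = 0.076). The BUT call was lost without BUT+ line 2 (0.212) or 3 (0.18) or BUT- line 1 (0.162) or 3 (0.186), and the CYC call without BUT+ line 2 (0.103), CYC+ line 1 (0.139) or 3 (0.206) or CYC- line 2 (0.246) or 3 (0.22). Control lines read 178, 199 and 154 CPM, overlapping with the lines of BUT+, BUT- and CYC-. Against them Cyp4p1 rose by 0.45 in CYC+ (SE 0.12, adjusted p = 0.0378), lost without CYC+ line 3 (0.104) or control line 3 (0.188), and fell by 0.38 in BUT- (SE 0.12, adjusted p = 0.0882), lost without any of 7 lines (0.108 to 0.272). Cyp4p1 lies within hig on the opposite strand, whose reads would be added where strand was not used.

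Cyp4e2 and Cyp4e1 are neighbours on 2R (8444560 to 8447164 and 8447451 to 8449745). Cyp4e2 read 160, 166 and 183 CPM in control, 136, 138 and 129 in CYC+ and 138, 123 and 124.7 in CYC-. All CYC lines were below all control lines. It fell by 0.34 in CYC+ (SE 0.11, adjusted p = 0.0806) and by 0.40 in CYC- (SE 0.11, adjusted p = 0.0567). The CYC+ call was lost without any of 6 lines (0.101 to 0.253), and the CYC- call without CYC- line 2 (0.137) or 3 (0.14) or control line 2 (0.108) or 3 (0.185). Cyp4e1 read 21.2, 14.8 and 18.6 CPM in control, and fell by 0.44 in CYC- (SE 0.12, adjusted p = 0.0483) and by 0.40 in BUT- (SE 0.12, adjusted p = 0.0672). Its CYC- lines (12.2, 15.7 and 12.4 CPM) and BUT- lines (12, 14.2 and 15.1 CPM) overlapped with control line 2. Each of these calls was lost without control line 1 (0.26 and 0.429) or control line 3 (0.113 and 0.128), that in CYC- also without CYC- line 1 (0.171) or 3 (0.165), and that in BUT- also without BUT- line 1 (0.252) or 2 (0.161). Cyp4e1 overlaps Mal-A1 on the opposite strand.

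Other members of the clan moved in CYC treatments. Cyp4d21, also called sxe1 and known from head fat body and male courtship, read 5.58, 4.42 and 1.17 CPM in CYC+ against 10.7, 7.63 and 6.43 in control. It fell by 1.14 (SE 0.34, adjusted p = 0.0594), which was lost without CYC+ line 3 (0.188) or control line 1 (0.221). Cyp4s3 had 3.52 ± 0.522 CPM in CYC+ and 5.63 ± 0.327 in control (SD over 3 lines), and fell by 0.68 (SE 0.19, adjusted p = 0.0432), lost without CYC+ line 2 (0.116) or control line 1 (0.133). No line of either gene overlapped between the 2 treatments. Cyp4d20 fell by 0.32 in CYC- (32.8 ± 1.67 against 40.8 ± 4.73 CPM, adjusted p = 0.053), lost without CYC- line 1 (0.104) or 2 (0.212) or control line 2 (0.269). Cyp318a1 was higher by 0.46 in CYC+ than in CYC- (4.55 ± 0.348 against 3.29 ± 0.0896 CPM, adjusted p = 0.0593), lost without CYC+ line 1 (0.154) or 3 (0.127) or CYC- line 2 (0.13) or 3 (0.142). Cyp4g15 rose by 0.19 in CYC+ (SE 0.05, adjusted p = 0.0466), from 214 ± 15.2 to 244 ± 13.9 CPM, and this was lost without CYC+ line 1 (0.117) or 3 (0.152) or control line 1 (0.152) or 3 (0.217). That is the smallest change among the calls, in a gene whose line means differed by 1.27-fold at most.

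Cyp313a1 (3R, 14521049 to 14523064), among the 10 highest P450 genes, read 286, 244 and 250 CPM in control. BUT- lines read 204, 172 and 108 CPM and CYC+ lines 119, 194 and 187 CPM, with no overlap with control. It fell by 0.69 in BUT- (SE 0.21, adjusted p = 0.0778) and by 0.64 in CYC+ (SE 0.21, adjusted p = 0.0806). CYC- lines read 171, 193 and 150 CPM with a log2 fold change of -0.60 that was not called (adjusted p = 0.144). The BUT- call was lost without BUT- line 2 (0.171) or 3 (0.288) or control line 1 (0.292) or 3 (0.116), and the CYC+ call without CYC+ line 1 (0.339) or any of the 3 control lines (0.104 to 0.214). Cyp313a1 overlaps Pde6 on the opposite strand. The other called genes of the clan, named here after their values were seen, were Cyp4ac2 (-0.72 in CYC-, adjusted p = 0.0896), Cyp4p3 (-0.30 in BUT- and -0.29 in CYC-, adjusted p = 0.0796 and 0.0954), Cyp313b1 (0.53 in CYC+, adjusted p = 0.0806) and Cyp4d1. Each of the calls of Cyp4ac2, Cyp4p3 and Cyp313b1 was lost without any of 5 to 9 lines. Cyp4ac2, Cyp4p3, Cyp4s3 and Cyp4d20 overlap tkv, hig, Rab3-GEF and CG45186 on the opposite strand.

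Of the P450 genes known for resistance to insecticides, Cyp6g1 and Cyp28d1 were not called in any comparison, while Cyp6w1 and Cyp12a4 each fell in 1. Cyp6g1 had line means of 3154 to 3394 CPM in BUT+ and 2188 to 2948 CPM in BUT-, without overlap, and 2646 to 3372 CPM in control. The log2 difference of BUT+ from BUT- was 0.33 (SE 0.12, adjusted p = 0.312), and no comparison called it. Cyp6w1 read 235, 251 and 319 CPM in CYC- against 367, 401 and 365 in control and fell by 0.49 (SE 0.14, adjusted p = 0.0707), lost without CYC- line 1 (0.25) or 2 (0.212) or any of the 3 control lines (0.11 to 0.159). Cyp12a4 read 166, 114 and 106 CPM in CYC+ against 232, 184 and 189 in control and fell by 0.65 (SE 0.21, adjusted p = 0.0769), lost without CYC+ line 2 (0.156) or 3 (0.219) or control line 1 (0.242) or 3 (0.136). In both cases all selected lines were below all control lines. Cyp12d1-d, another mitochondrial gene, fell by 1.68 in CYC+ (SE 0.52, adjusted p = 0.0674) from 3.77 ± 0.218 to 1.197 ± 0.879 CPM, lost without CYC+ line 2 (0.138) or 3 (0.129) or control line 1 (0.152) or 3 (0.142). Its tandem copy Cyp12d1-p had a log2 fold change of -1.09 (SE 0.48, adjusted p = 0.199). Reads can be split between these copies in an unknown way. Cyp28d1 differed in no comparison (adjusted p of 0.648 or more).

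Of CYP3 genes with no described role, Cyp28c1 rose by 0.28 in CYC+ (SE 0.08, adjusted p = 0.0469) from 14.0 ± 1.13 to 17.1 ± 1.99 CPM, lost without CYC+ line 3 (0.224) or control line 1 (0.211). Cyp308a1 had 16.4 ± 0.522 CPM in CYC-, 21.4 ± 1.63 in CYC+ and 20.7 ± 2.17 in control. It was lower in CYC- than in control by -0.34 (SE 0.09, adjusted p = 0.0568) and higher in CYC+ than in CYC- by 0.38 (SE 0.09, adjusted p = 0.0596). All CYC- lines lay below all lines of both other treatments. The first call was lost without CYC- line 1 (0.11), 2 (0.167) or 3 (0.137) or control line 1 (0.282), and the second without CYC+ line 3 (0.107) or CYC- line 2 (0.169) or 3 (0.167). Cyp308a1 overlaps CCKLR-17D1 on the opposite strand.

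The next genes are those of hormone metabolism, of sensory bristles and of the cuticle. Cyp6t3, required for ecdysteroid production in larvae, read 19.7, 22.0 and 22.7 CPM in BUT- against 33.4, 25.4 and 27.1 in control, without overlap. It fell by 0.42 (SE 0.13, adjusted p = 0.0745), lost without BUT- line 1 (0.22), 2 (0.177) or 3 (0.116) or control line 1 (0.447). Cyp303a1 rose by 0.56 in BUT- (SE 0.18, adjusted p = 0.0886) from 1.74 ± 0.266 to 2.56 ± 0.284 CPM. The call was lost without any of 9 lines (0.101 to 0.3). Cyp6t3 and Cyp303a1 overlap CG8858 and heix on the opposite strand. Cyp18a1 was lower than control in all 4 treatments, with log2 fold changes of -0.21 to -0.32, and Cyp6g2, a gene of the corpora allata, ranged from -0.30 in BUT- to 0.07 in CYC+. Neither was called. Cyp301a1, a mitochondrial gene of cuticle formation, was not called either, nor was Cyp4g1, whose log2 fold change in CYC+ was 1.30 with a SE of 0.73 (adjusted p = 0.317).

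Lines of the same treatment differed in 14 of 69 P450 genes (20.3%, against 7.99% of all genes) by edgeR's test between lines, in which the 2 samples of a line give the error. The number was 10 to 18 when each line was left out in turn. The ratio of the highest to the lowest of the 15 line means had a median of 1.89 in tested P450 genes and 1.34 in all tested genes. The most alike across lines were Cyp6u1 (1.19-fold), Cyp9f2 (1.21-fold) and Cyp4g15 (1.27-fold). By clan, the 14 were 8 of 33 tested CYP3 genes, 3 of 24 CYP4 genes and 3 of 9 mitochondrial genes. The genes with the smallest p were Cyp6a23 (adjusted p = 1.38e-09), Cyp6a2, Cyp4d1, Cyp6a9 (adjusted p = 0.000181), Cyp6a20 (adjusted p = 0.000374) and Cyp4s3 (adjusted p = 0.00185).

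Cyp4d1 (X, 2159145 to 2162180) showed the widest range of the family. BUT- line 1 read 16.6 CPM and BUT- lines 2 and 3 read 0.406 and 0.280 CPM. CYC- lines 1 and 2 read 23.8 and 16.3 CPM and CYC- line 3 read 0.392 CPM. In these 3 low lines the 6 libraries had 8 to 18 reads each, whereas the other 12 lines read 11.5 to 37.1 CPM. Control lines read 37.1, 35.5 and 29.4 CPM and BUT+ lines 34.8, 34.96 and 29.6 CPM. All low lines were in - treatments, and the log2 fold change of BUT- from control was -2.56 (SE 0.83, adjusted p = 0.0972). This call was lost without any of 10 lines (0.107 to 0.313), and without BUT- line 1 the log2 fold change was -6.60 (adjusted p = 0.000459). Between lines within treatments the adjusted p was 0.000111.

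Cyp6a2 (2R, 6779749 to 6781491), known for overexpression in insecticide-resistant strains, differed between lines within treatments. BUT+ lines read 48.6, 182 and 281 CPM, CYC+ lines 63.8, 158 and 50.5 CPM, and control lines 83.7, 110 and 51.3 CPM. BUT- lines read 62.9, 122 and 102 CPM and CYC- lines 94.96, 39.2 and 113 CPM. Lines of each treatment thus overlapped those of every other, no comparison of treatments called the gene, and the adjusted p between lines was 7.29e-06. Cyp6a2 overlaps Epac on the same strand. Cyp4d21 and Cyp4s3 also differed between lines within treatments (adjusted p = 0.00317 and 0.00185), with Cyp4d21 ranging from 1.17 CPM in CYC+ line 3 to 12.5 CPM in BUT+ line 1.

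**Figure D4:**
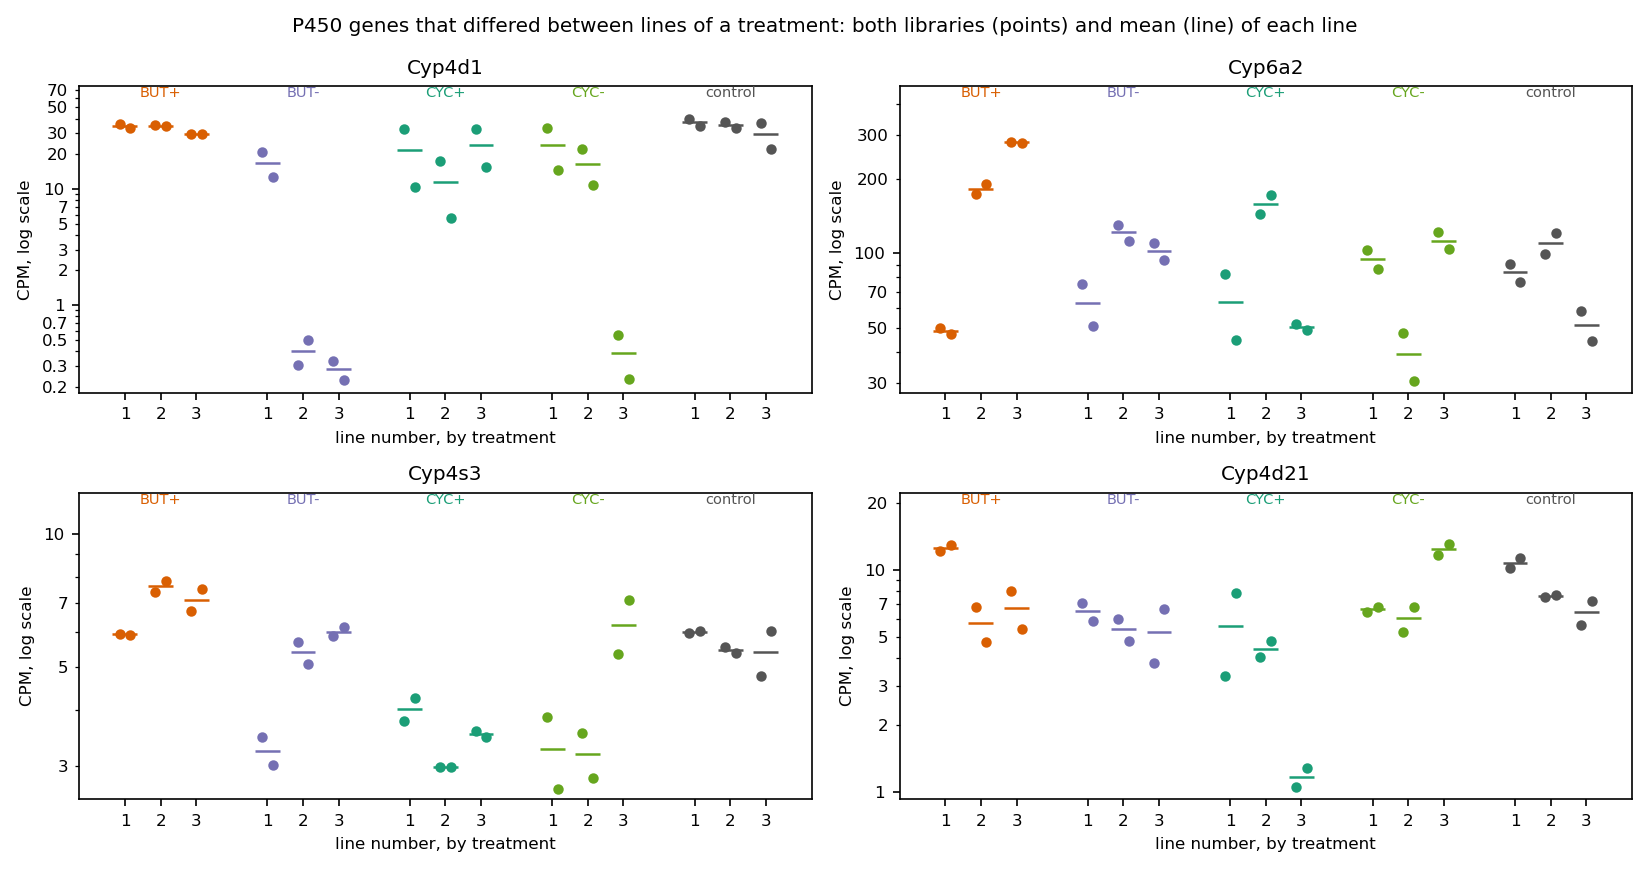
Levels of Cyp4d1, Cyp6a2, Cyp4s3 and Cyp4d21 in the 15 lines, in CPM on a log axis. Points are the 2 samples of a line with the first on the left, and the dash is the line mean. Cyp4d1 is at 0.280 to 0.406 CPM in BUT- lines 2 and 3 and CYC- line 3 and above 11 CPM in every other line.

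The sample number given in the labels moved the family as well. Per the study's methods both samples of a line were independent, and heads were collected in random order over several days. What sets the first sample apart from the second is not given in the sources used here. Median library totals were 27846591 counted reads in first and 35029659 in second samples, and the part of depth was not tested. By a test within lines, 37 of 69 P450 genes (53.6%) were called, against 25.8% of all genes, with 34 lower in the second sample (49.3%, against 13.7%) and 3 higher (4.35%, against 12.1%). With each line left out in turn, 31 to 45 genes were called. The 3 higher genes were Cyp313a1, Cyp303a1 and Cyp4c3. Genes in this paragraph and the next that were named for this difference were chosen after their values were seen. Cyp6d2 was lower in the second sample of 15 of 15 lines, with a median of 4.63 CPM in first and 2.47 in second samples, and fell by 0.90 (SE 0.21, adjusted p = 0.00633). Cyp4e3 fell by 1.10 (SE 0.26, adjusted p = 0.0076) in 13 of 15 lines, and Cyp309a1 by 1.11 (SE 0.25, adjusted p = 0.00587) in 12 of 15. Cyp4g1 fell by 1.00 (SE 0.34, adjusted p = 0.0476) in 11 of 15 lines, from a median of 27.8 to 14.2 CPM, and its library values ran from 1.78 to 98.7 CPM. Cyp313a1 rose by 0.37 (SE 0.05, adjusted p = 0.000342), from a median of 158 to 217 CPM, and was lower in 1 line only.

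The difference between the samples was unevenly spread over treatments. The median log2 difference of the 69 genes was -0.006, -0.003 and -0.024 in BUT+ lines 1 to 3, and -0.012, 0.127 and -0.080 in control lines 1 to 3. It was -0.490, -0.278 and -0.139 in CYC+, -0.235, -0.283 and -0.182 in CYC- and -0.185, -0.110 and -0.151 in BUT-. Every line of CYC+, CYC- and BUT- was thus below every line of BUT+ and control, which was not tested. In CYC+ line 1 63 of 69 genes were lower in the second sample, and in control line 2 25 were. All 6 CYC lines had lower Cyp309a1 and Cyp4e3 in the second sample, with log2 differences down to -2.92 and -3.26. Of the 6 markers of head fat body 5 were called lower in the second samples, as was 1 of the 2 tested markers of oenocytes, and 3 of 3 muscle markers were higher. The part of these cell types in the result was not tested.

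**Figure D5:**
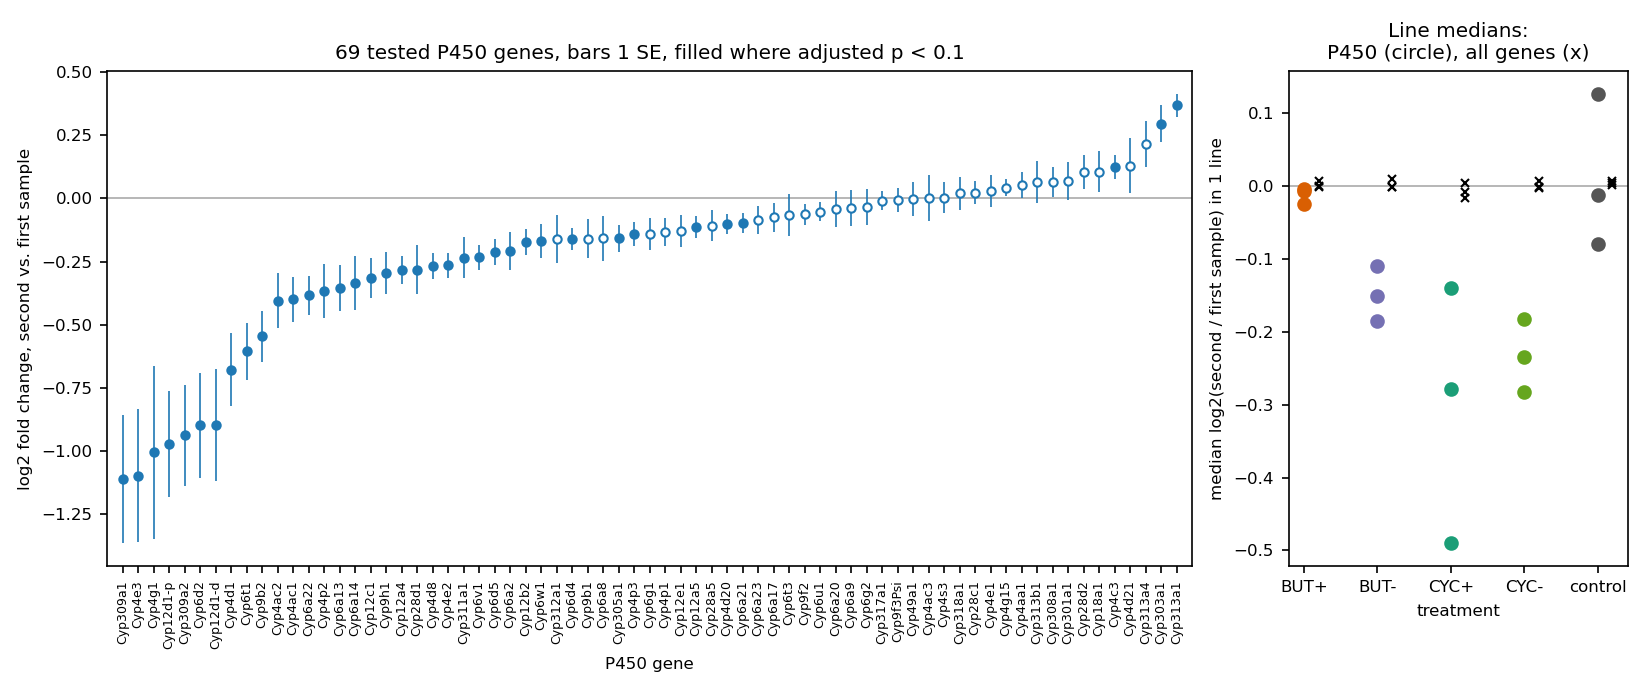
Difference between the 2 samples of a line. Left, log2 fold change of the second against the first sample for the 69 tested P450 genes, of which 34 were called lower and 3 higher. Right, the median log2 difference of the 69 genes in each of the 15 lines, from -0.49 in CYC+ line 1 to 0.13 in control line 2.

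Of the electron donors of P450s, all 6 listed partners were tested, and 2 rose in BUT+ vs. control (background 1.53%), Cyt-b5 by 0.23 (SE 0.06, adjusted p = 0.0265), from 285 ± 5.13 to 336 ± 0.572 CPM, and the ferredoxin Fdx2 by 0.31 (SE 0.10, adjusted p = 0.0951). The call of Cyt-b5 was lost without control line 1 (0.151), and that of Fdx2 without any of 9 lines (0.101 to 0.334). Across all 5 treatments edgeR also called Cyt-b5 and Fdx2 (background 19.3%), and between the 2 samples it called Cpr and Cyt-b5-r, both lower in the second (background 13.7%). Neither edgeR nor DESeq2 called a partner in the 5 other comparisons, where an unadjusted p under 0.05 was found for 3 partners in BUT+ vs. BUT- and for 0 elsewhere. The reductase Cpr had an adjusted p of 0.491 or more there. Of 10 regulators of the response to foreign compounds, all tested, 1 was called by edgeR in any comparison and 2 by DESeq2, with 6 at an unadjusted p under 0.05. The edgeR call was Hr96, a nuclear receptor, higher in CYC- than in control by 0.15 (SE 0.04, adjusted p = 0.0796, background 1.43%), and it was lost without any of 5 lines (0.107 to 0.279). The test across 5 treatments called Hr96 and maf-S, and that between samples called 4 regulators, 1 higher and 3 lower in the second. Of 8 listed Halloween genes, which make ecdysteroids, 2 were tested. Of these shd, the P450 that converts ecdysone to its active form, fell by 0.77 in BUT- (SE 0.19, adjusted p = 0.034), from 3.83 ± 0.293 to 2.27 ± 0.444 CPM, a call lost without BUT- line 2 (0.131) or 3 (0.124). The edgeR test across 5 treatments also called shd (adjusted p = 0.0122, background 19.3%). With the libraries of each line summed, the calls of Cyt-b5, Fdx2, Hr96 and shd against control were all lost (adjusted p = 0.2, 0.302, 0.3 and 0.109). Halloween P450s carry other symbols and are not among the 85 genes. Of 10 genes of hydrocarbon synthesis 8 were tested. In the 6 comparisons edgeR called 0 of them (against 14.1% of all genes) and DESeq2 called 2. At an unadjusted p under 0.05 edgeR found 3. Across all 5 treatments it called ACC (adjusted p = 0.00955, background 19.3%). Between lines within treatments it called FASN3 (adjusted p = 0.0487, background 7.99%). Between the 2 samples it called 4, FASN1 and FASN2 higher and ACC and Fad2 lower in the second (backgrounds 12.1% and 13.7%). For the partners, the regulators and these genes, no share of all genes is given for DESeq2 or at an unadjusted p. Those counts therefore cannot be set against a background. Midgut markers, which would reveal gut tissue, had sums of 9.72 to 456 CPM with 3 of 7 tested lower in CYC+ than in control, and gammaTry was at 0 in every library. Markers of Malpighian tubule had sums of 9.54 to 22.8 CPM, with 1 of 2 tested higher in all 4 selected treatments than in control. The part of these tissues in the P450 values was not tested.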

How the data were processed

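The data are counts of reads per gene in 30 libraries, whole numbers deposited without normalization, which the authors made with Trim Galore!, Cutadapt and STAR on release 6.10 of the genome. The counting tool, its use of strand and its treatment of reads from several genes are not given in the sources used here. Treatments, lines and sample numbers came from the labels. Positions came from Ensembl release 115 on the same Release 6 assembly, by gene identifier for 84 genes and by symbol for 1.

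The test was the quasi-likelihood test of edgeR 4.0.16 (R 4.3.3) with TMM scaling, run on all 9240 genes that reached 1 CPM in 15 or more of the 30 libraries. A single model held the 5 treatment means, with lines pooled within a treatment as in the study's methods. Both libraries of a line entered as samples of their own, so p-values reflect the spread of libraries rather than that of lines alone. Further models had 15 line means, for lines within treatments, and line means with sample number, for second vs. first samples. The adjusted p is Benjamini-Hochberg over all genes tested and the threshold 0.1. Each SE was obtained as |log2 fold change| over the root of the F statistic. Levels are TMM-scaled CPM, as mean and SD over 3 line means, and between genes as CPM per kb of annotated exon.

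Named genes were those called in the 6 comparisons (the 15 with the smallest adjusted p), the 10 highest per kb, the 6 with the smallest p between lines and those with described roles. Members and lists were chosen with earlier results of these data known. Alternatives were RLE scaling, 2 other filters, DESeq2 1.42.0, summed libraries, only the 12 libraries compared, a stricter threshold of 0.05, a replicate block and each line left out. Fits of first or second samples alone, and the fits without a line for the tests between lines and between samples, were added after seeing the data. The scripts were tested on simulated counts.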

Additional observations from a re-analysis of the deposited data

Results flagged for a closer look

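Among 36 named P450 genes in 5 treatments, 180 groups of 6 libraries were checked for a highest or lowest library set apart by a gap to the next that was large for the group's range (Dixon's 95% criterion). There were 9, and chance sets apart about 1 in 20 groups. The widest ratio to the next library was that of Cyp4g1 in CYC- line 1 sample 1, at 98.7 CPM against 16.7 CPM in the next library. In the first sample of CYC+ line 1, Cyp6w1 stood at 565 CPM (next 377), Cyp12a4 at 204 CPM (next 129) and Cyp318a1 at 5.36 CPM (next 4.53). In the first sample of CYC- line 1, Cyp4p1 stood at 228 CPM (next 172). In the BUT treatments, Cyp6w1 stood at 400.0 CPM in BUT+ line 3 sample 1 (next 355), Cyp6t3 at 26.3 CPM in BUT+ line 2 sample 1 (next 22.9) and Cyp308a1 at 23.1 CPM in BUT- line 3 sample 2 (next 19.9). The only low value was that of Cyp4d1 in control line 3 sample 2, at 22.0 CPM against 33.3 CPM in the next library. Of the 9, 7 were in first samples.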

How the results depend on the processing

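No call of a named gene changed direction under any alternative. All 43 calls were kept with DESeq2, RLE scaling and the replicate block, 41 with the filter of 1 CPM in all 30 libraries (the other 2 were not testable), 33 without a filter, 21 with only the 12 libraries compared and 3 with the libraries of a line summed. The 3 were Cyp6a21 in BUT- and Cyp4e2 in CYC+ and CYC-. With an adjusted p under 0.05, 17 were kept.

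Counts of P450 genes that moved by more than 1.5 times are given here by comparison, and the cause was not tested. The shares of all genes called under the alternatives are not given, the replicate block and the fits without a line included. A change in a P450 count therefore cannot be told from a change in calls over all genes. With summed libraries, which leave 3 samples per treatment, the counts were 0 for BUT+ vs. BUT-, BUT+ vs. control and CYC+ vs. CYC-, 1 each for BUT- vs. control, CYC+ vs. control and CYC- vs. control, and 13 across 5 treatments. With only the 12 libraries compared they were 4 for BUT+ vs. BUT-, 7 for BUT+ vs. control, 7 for BUT- vs. control, 1 for CYC+ vs. CYC- and 4 for CYC+ vs. control. With a threshold of 0.05 they were 1 for BUT+ vs. BUT-, 1 for BUT+ vs. control, 3 for BUT- vs. control, 1 for CYC+ vs. CYC-, 6 for CYC+ vs. control, 5 for CYC- vs. control and 19 across 5 treatments. Without a filter BUT- vs. control gave 7. DESeq2 gave 8 for CYC+ vs. CYC-, 23 for lines within treatments and 1 for the BUT response against the CYC response. The first samples alone gave 0 for BUT+ vs. BUT-, BUT+ vs. control, BUT- vs. control, CYC+ vs. CYC- and CYC- vs. control, 2 for CYC+ vs. control and 1 across 5 treatments. The second samples alone gave 0 for BUT+ vs. BUT-, BUT+ vs. control, BUT- vs. control and CYC+ vs. CYC-, 6 for CYC+ vs. control and 16 across 5 treatments.

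With each line left out in turn, the counts ranged from 1 to 4 for BUT+ vs. control, 3 to 14 for BUT- vs. control, 0 to 3 for BUT+ vs. BUT-, 2 to 14 for CYC+ vs. control, 4 to 15 for CYC- vs. control, 0 to 12 for CYC+ vs. CYC-, 19 to 34 across 5 treatments, 0 to 2 for the BUT response against the CYC response, 10 to 18 for lines within treatments and 31 to 45 for second vs. first samples.

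The sources used here do not say that a line or sample number marks a shared batch. The deviations of same-numbered lines had a mean correlation of -0.05 over 30 pairs. Those of same-numbered samples had a mean of 0.38 over 10 pairs of treatments, above 0 in 10 and above 0.1 in 9, with a lowest of 0.06. A pairing was taken only where every value was above 0.1, so the models without the block were kept, although samples of the same number deviated together in most treatments. With the replicate block, the counts were 6 for BUT+ vs. BUT-, 3 for BUT+ vs. control, 14 for BUT- vs. control, 6 for CYC+ vs. CYC-, 16 for CYC+ vs. control, 16 for CYC- vs. control, 36 across 5 treatments, 20 for lines within treatments and 1, Cyp4d21, for the BUT response against the CYC response.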
